A study of Mus musculus with 3 samples.

Results

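The interferon response genes described here were 39 genes that cells are known to switch on after interferon, together with transcription factors of the response. Each was a member because its symbol stood on a list of names, not because of a measured value passing a limit. The list was drawn up with earlier results of these data known. Of the 39, 38 had a row among the 32285 genes of the files, and *Mx1* was not analysed here. By known role the 38 were 5 transcription factors (*Irf1*, *Irf7*, *Irf8*, *Irf9*, *Stat2*), 14 antiviral effectors and regulators (*Isg15*, *Usp18*, *Ifit1*, *Ifit2*, *Ifit3*, *Ifit3b*, *Ifih1*, *Oas2*, *Oasl2*, *Rsad2*, *Rtp4*, *Ifi44*, *Ifi35*, *Ifi27*), 4 membrane restriction factors (*Ifitm1*, *Ifitm2*, *Ifitm3*, *Bst2*), 4 PYHIN genes of the Ifi200 family (*Ifi203*, *Ifi204*, *Ifi205*, *Ifi207*), 7 interferon-inducible GTPases (*Gbp2*, *Gbp3*, *Gbp7*, *Igtp*, *Irgm1*, *Iigp1*, *Ifi47*) and 4 antigen-processing genes (*Psmb8*, *Psmb9*, *Tap1*, *B2m*). They were read in 31905 cells, which were barcodes with at least 2000 unique molecular identifiers (UMIs, 1 per captured transcript) and at most 10% mitochondrial UMIs.

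The cells came from the stromal vascular fraction of inguinal fat of 4-week-old mice, freed by collagenase and sorted as living cells without Cd45, the marker of blood-derived cells. Single-cell RNA sequencing (10x Genomics, 3′ chemistry) gave 1 library for each of 3 genotypes: wild-type, *Mgp*-KO (matrix Gla protein, a secreted inhibitor of bone morphogenetic proteins, deleted in every cell) and *Pd*-KO (floxed *Mgp* deleted by Cre under the *Pdgfra* promoter, which is active in fibroblast-like stromal cells and adipocyte progenitors). Each library pooled mice of both sexes, and the wild-type library was the only control for both deletions, since a floxed control without Cre was not used here. With 1 library per genotype no difference between genotypes has a replicate check, so no p-value is given, and the intervals are exact 95% intervals that cover counting error only. Values of the libraries are always given in the order wild-type, *Mgp*-KO and *Pd*-KO.

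Type I interferons bind the receptor made of Ifnar1 and Ifnar2, whose kinases Jak1 and Tyk2 activate a complex that holds Stat2 and Irf9 and binds the interferon-stimulated response element (ISRE) before antiviral genes such as *Isg15*, *Ifit1* and *Rsad2*. Interferon gamma acts through its own receptor and the gamma-activated sequence (GAS) before genes such as *Irf1* and the GTPases. Fibroblasts and endothelial cells are known to respond to both kinds of interferon.

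The 2 elements can be read directly in the members' promoters. RefSeq windows of 300 bases (GRCm38.p6, from 250 bases before to 50 bases after each annotated start) were at hand for 32 members. The ISRE letters GAAANNGAAA, on either strand, stood in windows of 19 of the 32 members (59.4%) and of 1079 of 27025 genes overall (3.99%). The GAS letters TTCNNNGAA stood in windows of 9 of the 32 (28.1%) and of 9.55% of all genes, both elements in 4 (12.5% against 0.614%), and neither in 8 of the 32. By role the ISRE letters were found in 5 of 6 GTPases, 3 of 3 PYHIN genes, 3 of 4 membrane restriction factors, 6 of 10 antiviral genes, 1 of 5 transcription factors and 1 of 4 antigen-processing genes. *Ifi27*, *Ifi204*, *Iigp1*, *Rtp4*, *Usp18* and *Oas2* had no window.

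The stretches below were chosen because their genes are in the score used further on or for the letters they hold. The antiviral genes *Isg15*, *Ifit1*, *Ifit3*, *Ifit3b* and *Rsad2* are among the 12 genes of that score. *Gbp7* and *Igtp* hold both elements, and *Irf1* holds GAS letters and no ISRE. Each is written 5′ to 3′ on the gene's own strand, in lower case, with the matched letters in capitals. TTTC on both sides of a gap marks an ISRE on the opposite strand.
Isg15, chr4:156200850-156200921, minus strand, 3 overlapping ISRE matches: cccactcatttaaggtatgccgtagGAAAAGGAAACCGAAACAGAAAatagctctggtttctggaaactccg
Ifit1, chr19:34640760-34640838, plus strand, 2 ISRE matches: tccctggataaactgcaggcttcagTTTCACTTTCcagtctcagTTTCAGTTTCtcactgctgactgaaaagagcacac
Ifit3, chr19:34583348-34583441, plus strand, 2 ISRE matches: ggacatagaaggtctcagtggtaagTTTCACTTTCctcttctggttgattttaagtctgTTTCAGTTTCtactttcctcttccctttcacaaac
Rsad2, chr12:26456538-26456597, minus strand, 1 ISRE match: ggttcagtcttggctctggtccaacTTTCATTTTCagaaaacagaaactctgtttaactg
Gbp7, chr3:142530205-142530317, plus strand, 2 GAS matches and then 1 ISRE match: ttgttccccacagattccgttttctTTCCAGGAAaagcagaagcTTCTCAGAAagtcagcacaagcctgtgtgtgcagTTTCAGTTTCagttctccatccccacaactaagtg
Igtp, chr11:58199486-58199555, plus strand, 1 GAS match and then 1 ISRE match: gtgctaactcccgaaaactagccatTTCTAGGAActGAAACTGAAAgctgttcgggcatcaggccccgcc
Irf1, chr11:53769899-53769957, plus strand, 1 GAS match: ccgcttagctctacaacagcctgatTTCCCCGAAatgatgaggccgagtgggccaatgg

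The stretch of *Ifit3b* (chr19:34607744-34607837, plus strand) is the same 94 letters as that of *Ifit3*. *Psmb9* and *Tap1*, which cut and carry peptides for antigen presentation, start 225 bases apart in opposite directions. A letter match is a description of the window and says nothing about binding in these cells.

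Of the libraries as a whole, the 3 held 10511, 12575 and 8819 kept cells with medians of 12802, 6445 and 8269 UMIs per cell. The wild-type file header named Cell Ranger 4 and both deletion headers Cell Ranger 7.1.0, so counting version and genotype cannot be told apart in any comparison with wild-type. *Mgp* itself stood at 521, 1.91 and 0.635 UMIs per 1000000 (CPM) in stromal cells, as the labels of the deletions say. Between 35 and 40 cell barcodes were shared by each pair of libraries. Free RNA, read in barcodes of 10 to 100 UMIs, held 25, 14 and 11 of the 38 members at a higher CPM than the cells of the same library did, with *Irf1* at 300.2 against 101 CPM in wild-type. The same count over all genes was not made, so these counts are not a result about the members. Classes were found by clustering without any member among the genes used, and were named from marker genes: stromal-like cells (7267, 11035 and 6981 cells), endothelial-like (828, 285 and 786), mural-like, meaning smooth muscle and pericytes (1054, 222 and 583), luminal-like epithelium (371, 602 and 127) and myoepithelial-like (43, 162 and 24). The ending "-like" is left out from here on.

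Summed over all kept cells, the 38 members took 5781, 6179 and 5709 CPM. Most of this was 3 genes, the membrane restriction factors *Ifitm3* (1548, 1661 and 1597 CPM) and *Ifitm2* (1116, 1217 and 949 CPM) and the class I light chain *B2m* (988.5, 883 and 870.3 CPM), which together held 63.2%, 60.9% and 59.8% of the members' UMIs. Counting error on these levels was small, from 1542 to 1555 CPM for *Ifitm3* in wild-type. The median member stood at 29.5, 32.1 and 45.1 CPM, 11 members stood at 100 CPM or more in each library, and 5, 5 and 3 members stood under 10 CPM.

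Within roles the leading members were the following. Among the antiviral genes *Ifi27*, an interferon-induced gene of the mitochondria and nuclear envelope, stood at 403, 244 and 191 CPM, and *Isg15*, the ubiquitin-like modifier, at 94.7, 79.4 and 103 CPM. *Bst2* (tetherin, which holds budding virus at the cell surface) stood at 192, 226 and 399 CPM, highest in *Pd*-KO. The PYHIN genes, relatives of cytosolic DNA sensors, were led by *Ifi205* at 212, 345 and 131 CPM and *Ifi204* at 149, 215 and 140.3 CPM, both highest in *Mgp*-KO. *Irf1*, a factor induced by interferon gamma among other signals, led the transcription factors at 101, 154 and 74.3 CPM, and *Iigp1*, a GTPase that attacks the vacuoles of parasites, led the GTPases at 112, 127 and 128 CPM. The members with fewest UMIs were *Oas2*, an RNA-sensing synthetase (868 UMIs in all cells; 2.09, 2.37 and 4.61 CPM), and *Irf8*, a factor known from blood-derived cells (1018 UMIs; 4.48, 2.31 and 2.10 CPM). These levels are 3′ UMI counts that are not scaled to gene length.

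**Figure D1:**
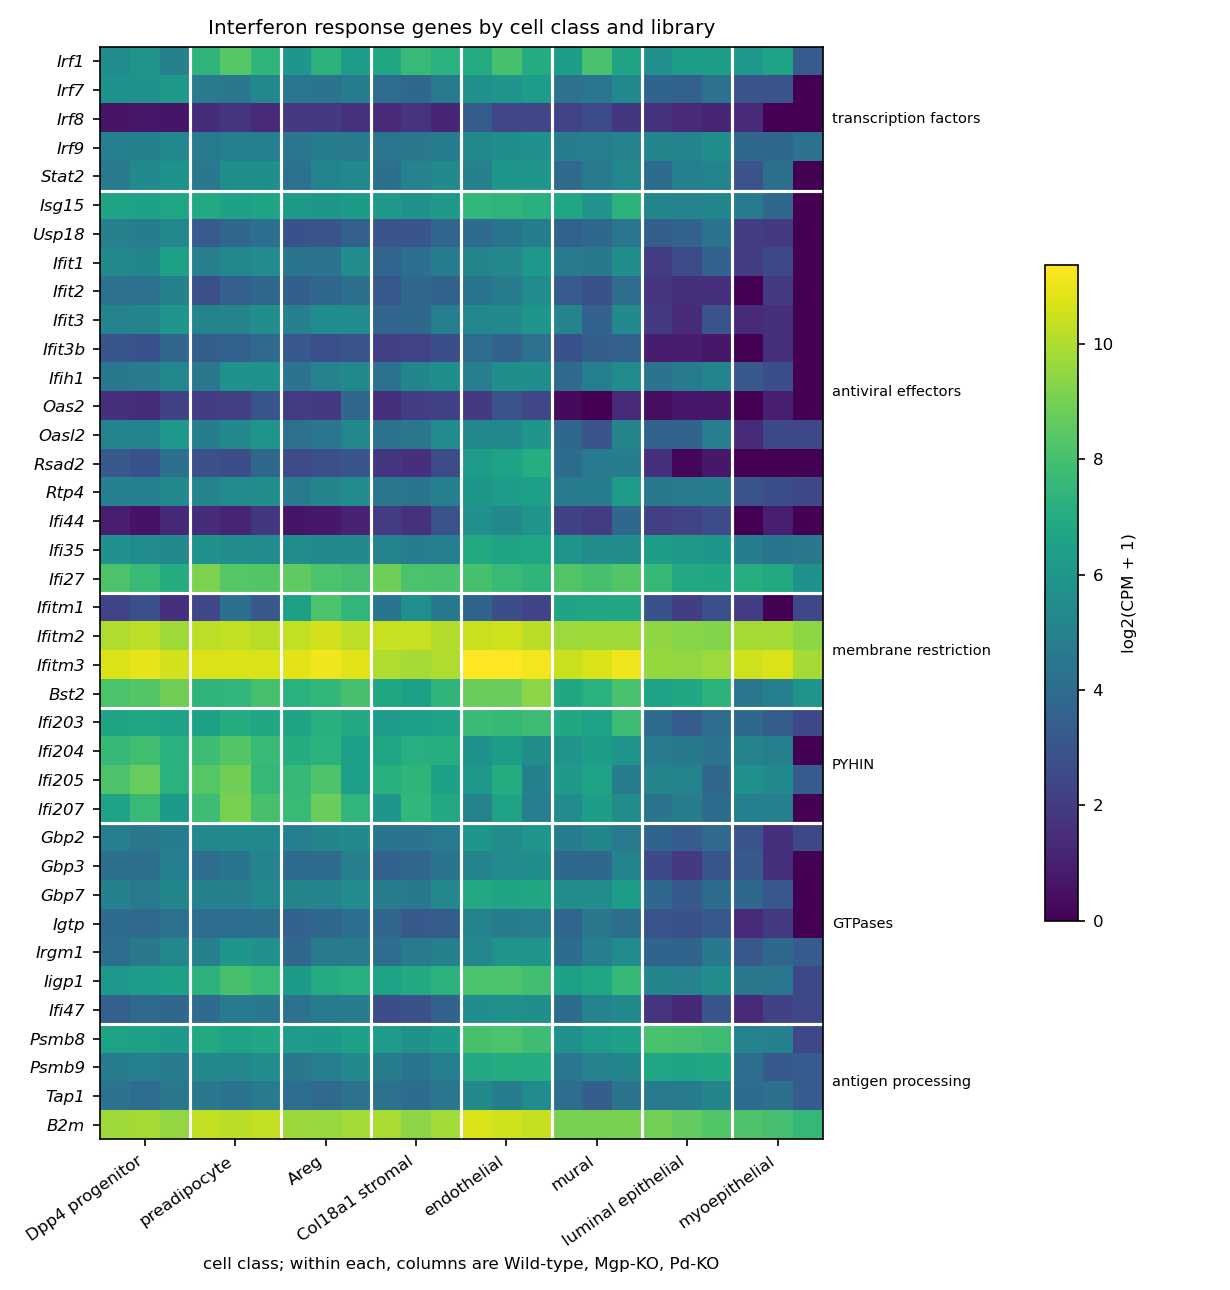
Level of each member (rows, grouped by role) as log2(CPM + 1) in 8 cell classes, with 3 columns per class for wild-type, *Mgp*-KO and *Pd*-KO. Brighter color is a higher level. *Ifitm3*, *Ifitm2* and *B2m* are the brightest rows, and the *Ifi204*, *Ifi205* and *Ifi207* rows are brightest in stromal subsets. *Rsad2* and *Ifi44* stand out in endothelial cells, and luminal cells are dark across most antiviral rows.

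Copies that share sequence make some of these counts uncertain. Of the 60-base stretches in their transcripts, 47.0% in *Ifit3* and 40.8% in *Ifit3b* were shared with another gene, mainly with each other. The shared part was 46.0% in *Ifitm2*, 47.6% in *Ifi205* (with *Ifi211*) and 25.7% in *Ifi204*.

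Of the stromal, endothelial, mural and luminal classes, endothelial cells had the largest share of their UMIs from the members. It was 8779, 8907 and 8109 CPM in sum against 6025, 6461 and 5625 CPM in stromal cells. Luminal cells had the smallest share of the 4, at 3171, 2910 and 2995 CPM. CPM is not an amount per cell: the median cell held 6652, 3672 and 4290 UMIs in endothelial and 13997, 6425 and 8961 UMIs in stromal cells. Mural cells stood at 4355, 4958 and 6020 CPM, above stromal cells in *Pd*-KO and below them in the other libraries. Antigen processing made much of the endothelial sum, with 2085, 1907 and 1729 CPM against 1168, 1049 and 994 CPM in stromal cells. The PYHIN genes went the other way, with 368, 500.3 and 328 CPM in endothelial and 689, 1024 and 525.5 CPM in stromal cells.

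Single members were compared between classes within each library, and a member was counted when it differed at least 2-fold in the same direction in all 3 libraries. All 38 had the minimum of 100 UMIs over the classes compared. Of 38 members, 9 were higher in endothelial than in stromal cells and 3 were lower, where 11.0% and 8.29% of 15062 genes were. The count of lower ones lay near the share of all genes and is not a result about the members. The member with the steepest ratio was *Ifi44*, a cytoplasmic antiviral protein, at 52.7, 40.1 and 60.04 CPM in endothelial cells and 1.57, 0.956 and 2.03 CPM in stromal cells. Its log2 ratio was 5.07, 5.40 and 4.88 (wild-type interval 4.80 to 5.34). *Rsad2* (viperin, which makes a chain-terminating nucleotide) stood at 75.7, 96.8 and 133 CPM in endothelial cells and 5.86, 5.32 and 14.7 CPM in stromal cells. Its log2 ratio was 3.69, 4.19 and 3.18. *Ifi44* and *Rsad2* were named for their high ratios, so the lack of overlap between the classes across libraries is no further result.

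Other antiviral genes were nearer to equal. *Ifit1*, which binds viral RNA caps and holds 2 ISRE matches in its window, stood at 35.5, 37.3 and 66.4 CPM in endothelial and 28.8, 32.4 and 71.8 CPM in stromal cells. *Oasl2* stood at 38.8, 38.7 and 59.2 CPM against 26.6, 32.5 and 61.1 CPM. For both, the *Pd*-KO stromal level was above the *Pd*-KO endothelial level.

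The other endothelial-high members were the immunoproteasome genes *Psmb9* (114, 130 and 126 CPM; log2 ratio 1.87, 2.15 and 2.06) and *Psmb8* (267, 279 and 229 CPM; 1.44, 1.76 and 1.52), the GTPases *Gbp7* (115.5, 98.9 and 111 CPM; 1.92, 1.94 and 1.59), *Ifi47* (47.0, 50.9 and 49.7 CPM; 2.00, 1.71 and 1.64) and *Iigp1* (282, 280 and 240.4 CPM; 1.41, 1.08 and 1.02), *Ifi35* (1.26, 1.23 and 1.37) and *Irf8* (2.67, 1.64 and 2.24). *Irf8* was low in both classes, at 9.09, 4.30 and 4.38 CPM in endothelial and 1.44, 1.49 and 0.945 CPM in stromal cells. It had under 100 endothelial UMIs in all and met the minimum only with the stromal UMIs added. *Gbp7*, the GTPase whose window holds GAS and ISRE letters, kept a similar ratio in all 3 libraries. The 3 members lower in endothelial cells were PYHIN genes: *Ifi207* (log2 ratio -2.18, -1.62 and -2.09), *Ifi205* (-1.96, -1.55 and -2.25) and *Ifi204* (-1.72, -1.54 and -1.72). The family did not move as one, since *Ifi203* stood at 212, 193 and 221 CPM in endothelial cells and 91.5, 108.5 and 99.5 CPM in stromal cells.

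Without the wild-type library 9 members were higher and 4 lower, the added one being *Ifitm1*. Leaving out a library loosens the rule for every gene, and the share of all genes under it is not given here. Markers of other cell types were read in the same classes: 8 immune markers summed to 4.12, 2.87 and 6.57 CPM there (1, 4 and 1 of the 8 at 0) and to 1.87, 2.26 and 1.80 CPM in stromal cells (1 of the 8 at 0 in each), and 6 stromal markers summed to 15280, 15769 and 18961 CPM against 63254, 53914 and 73414 CPM in stromal cells. The 5 erythroid markers stood higher in endothelial cells (1545, 1155 and 754 CPM against 325, 50.6 and 41.6 CPM), and their part in the result was not tested.

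Mural cells had 3 members higher than stromal cells in every library and 4 lower, against 9.01% and 5.86% of 15009 genes. The count of higher ones lay near the share of all genes and is not a result about the members. *Ifitm1*, which blocks virus entry at the plasma membrane, had the highest level among the higher ones: 98.98, 104 and 110.3 CPM in mural cells and 16.6, 33.1 and 17.0 CPM in stromal cells (log2 ratio 2.57, 1.66 and 2.70). In cluster 9, the larger of the mural clusters in each library, it stood at 33.5, 52.8 and 109.6 CPM. There the *Mgp*-KO level was less than 2-fold above that of stroma. The other higher members, *Irf8* and *Ifi44*, stayed between 2.56 and 13.4 CPM in mural cells. Each had under 100 mural UMIs in all and met the UMI minimum only with the stromal UMIs added. The lower ones were the PYHIN genes *Ifi204*, *Ifi205* and *Ifi207*, and *Oas2*, which had 2, 0 and 5 mural UMIs and met the UMI minimum through stromal cells alone.

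Luminal epithelium stood apart from the stroma by a lower CPM of many members. There 22 of 38 members were lower than in stromal cells in every library and 3 were higher, against 14.8% and 14.0% of 15275 genes. *Ifit3*, a partner of Ifit1, stood at 2.82, 1.66 and 6.52 CPM in luminal and 29.0, 31.6 and 54.6 CPM in stromal cells (log2 ratio -3.33, -4.19 and -3.00), and *Ifit1* at 3.04, 5.13 and 11.1 CPM (-3.22, -2.64 and -2.65). Of the 22, 9 had under 100 luminal UMIs in all and met the minimum through stromal cells: *Ifit1*, *Ifit2*, *Ifit3*, *Ifit3b*, *Oas2*, *Rsad2*, *Ifitm1*, *Gbp3* and *Ifi47*, with *Oas2* at 3, 4 and 1 and *Rsad2* at 17, 1 and 1 luminal UMIs. The 22 also held *Isg15*, *Irf7*, all 4 PYHIN genes, 6 of 7 GTPases (*Irgm1* was the exception) and *B2m*. The higher ones were *Psmb9* (105, 98.8 and 111.5 CPM; log2 ratio 1.75, 1.75 and 1.89), *Psmb8* (270.4, 260 and 229 CPM; 1.46, 1.66 and 1.52) and, at 3.49, 3.97 and 5.22 CPM, *Ifi44*. *Ifi44* had under 100 luminal UMIs in all and met the minimum only with the stromal UMIs added. *B2m*, *Psmb8* and *Psmb9* belong to 1 pathway, and in luminal cells the first was lower than in stroma while the proteasome genes were higher.

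The stroma was split by the same markers into *Dpp4* progenitor cells (2491, 5840 and 4410), preadipocytes (2547, 2751 and 1480), Areg cells, a regulatory population marked by F3 and Clec11a (1083, 904 and 651), and a subset named from *Col18a1*, *Sdc1*, *Nxn* and *Fgf10* (1146, 1540 and 440), whose 2 clusters had *St6galnac3* and *Cited1* as leading genes. The *Dpp4* class joined stromal clusters 0, 1, 3 and 9, and cluster 0 held 4 hemoglobin genes among its 10 leading genes beside the progenitor genes *Pi16* and *Krtdap*, with 5 erythroid markers at 1673, 4.55 and 235 CPM in sum. Cluster 0 made up 53.95%, 33.9% and 28.2% of the class, so genotypes are compared by cluster within it. Each subset was compared with the remaining stromal cells of its library. In *Dpp4* progenitors 2 members were higher in every library and 3 lower, against 4.02% and 8.09% of genes. Both counts lay near the shares of all genes, so they are not a result about the members. *Irf7*, the factor that amplifies type I interferon, stood in these progenitors at 56.4, 54.4 and 69.7 CPM (log2 ratio 1.40, 1.56 and 1.09), and *Usp18*, the protease that removes Isg15 and damps the receptor, at 29.6, 26.5 and 37.7 CPM (1.93, 1.44 and 1.38). *Irf1* was lower (44.4, 57.9 and 30.2 CPM; -1.58, -2.18 and -2.30), as were *Ifitm1* (-2.55, -3.44 and -4.55) and *Irf8* (-1.89, -1.84 and -1.52). Without cluster 0, 1 member was higher (4.37% of genes) and 3 were lower (7.31%): *Usp18* (1.93, 1.39 and 1.37) and the same 3 passed, while *Irf7* stood at 1.21, 1.25 and 0.86. The counts without cluster 0 also lay near the shares of all genes.

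Preadipocytes had 3 members higher and 1 lower, against 1.87% and 4.54% of genes. *Irf1* stood at 166, 331.5 and 174.5 CPM in preadipocytes (log2 ratio 1.29, 1.76 and 1.98), above the *Dpp4* progenitor level of the same library in each case. *Ifi207* (1.16, 1.30 and 1.66) and *Iigp1* (1.06, 1.56 and 1.10) were the other higher members, and *Ifitm1* was lower (-2.46, -1.12 and -1.25). Areg cells were the stromal home of *Ifitm1*, at 85.6, 283 and 177 CPM against 3.89, 5.81 and 2.00 CPM in *Dpp4* progenitors (log2 ratio 4.05 and 5.20 in the deletions and 3.499 in wild-type against the remaining stroma). They had 2 members higher, *Ifitm1* and *Irf8* (1.11, 1.04 and 1.42), and 1 lower, *Usp18* (-1.34, -1.52 and -1.63), against 3.38% and 3.54% of genes. Both Areg counts lay near the shares of all genes and are not a result about the members. *Irf8* had under 100 UMIs in Areg cells in all. In the *Col18a1* subset 1 member, *Ifi44*, was higher (1.32, 1.57 and 1.98) and 4 were lower, against 6.02% and 4.16% of genes: *Ifit1* (-1.42, -1.07 and -1.51), *Rsad2* (-1.40, -1.65 and -1.53), *Irf7* and *Usp18*.

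Of the 4 subsets, *Irf7* and *Usp18*, named after their values were seen, had their highest level in *Dpp4* progenitors in all 3 libraries. *Usp18* had its lowest in Areg cells (6.31, 6.65 and 10.07 CPM). *Irf1*, whose window holds GAS letters and no ISRE, ran from low in *Dpp4* progenitors to high in preadipocytes. Shares of these subsets differed between the libraries: *Dpp4* progenitors were 23.7%, 46.4% and 50.01% of all kept cells and preadipocytes 24.2%, 21.9% and 16.8%.

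The genotype comparison asks what loss of *Mgp*, in every cell or through Pdgfra-Cre, went with in the same cell class. A member was counted when its log2 ratio between libraries, less the median over all genes tested, was past 1 in either direction with its interval clear of that median, and genes with fewer than 100 UMIs over both libraries were left out. That median was 0.16 for *Mgp*-KO over wild-type, 0.20 for *Pd*-KO over wild-type and 0.04 for *Pd*-KO over *Mgp*-KO, and the ratios called relative below have it taken off. Both deletions share the wild-type library, so their ratios to it are not independent. The libraries also differed in sex, which was called from *Xist* and Y-linked RNA. Stromal cells called female numbered 2498, 6576 and 2212, and those called male 2748, 1697 and 2923. Sex and genotype are thus mixed in both comparisons with *Mgp*-KO.

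In stromal cells 0 of 38 members were past 2-fold in either direction between *Mgp*-KO and wild-type, where 15.4% of 13967 genes were higher and 3.64% lower. This count is over the pooled stroma, and some members were past 2-fold within subsets or clusters, as given below. Members lay from -0.94 (*Ifi27*, 429 and 251 CPM) to 0.83 (*Ifitm1*, 16.6 and 33.1 CPM) on the relative log2 scale, 17 above 0 and 21 below, with a median of -0.02. All 4 PYHIN genes lay above 0 (median 0.31), for example *Ifi207* at 149.9 and 289.5 CPM. All 4 antigen-processing genes lay below 0 (median -0.36), with *B2m* at 1019 and 921 CPM. Against the running median of genes of like span on the genome, *Psmb9* (0.08) and *B2m* (0.04) lay above 0, and *Psmb8* (-0.08) and *Tap1* (-0.19) below.

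In *Pd*-KO stromal cells 5 of 38 members were at least 2-fold higher than in wild-type and 2 were lower, where 17.4% and 7.36% of 13801 genes were. Both counts lay near the shares of all genes, so they are not a result about the members. The higher ones were 4 antiviral genes and *Stat2*, the signal carrier of type I interferon. *Ifit1* stood at 28.8, 32.4 and 71.8 CPM (*Pd*-KO over wild-type log2 ratio 1.32, interval 1.25 to 1.38, relative 1.12). *Stat2* stood at 21.7, 41.8 and 51.7 CPM (1.26, 1.18 to 1.33, relative 1.06). Both genes had their highest level in *Pd*-KO, and *Stat2* was nearly as high in *Mgp*-KO.

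*Rsad2* stood at 5.86, 5.32 and 14.7 CPM (log2 ratio 1.33, 1.18 to 1.48, relative 1.13), *Ifit2* at 10.6, 14.9 and 24.9 CPM (1.24, 1.13 to 1.35, relative 1.04) and *Oasl2* at 26.6, 32.5 and 61.1 CPM (1.20, 1.13 to 1.27, relative 1.00). The lower members were *Ifi27* at 429, 251 and 185 CPM (-1.21, -1.24 to -1.19, relative -1.41) and *Ifi205* at 266.5, 388 and 149.6 CPM (-0.83, -0.87 to -0.80, relative -1.03). *Ifi27* was lower in both deletions than in wild-type, whereas *Ifi205* was highest in *Mgp*-KO. *Isg15*, with 3 overlapping ISRE matches, stood at 96.7, 82.3 and 99.7 CPM and was past the fold in neither deletion. The members next under the limit, with relative ratios from 0.61 to 0.84, were *Irf7* (32.7, 37.4 and 57.4 CPM), *Usp18* (14.9, 18.6 and 29.97 CPM), *Ifit3* (29.0, 31.6 and 54.6 CPM), *Ifih1* (21.3, 35.5 and 43.0 CPM), *Irgm1* (20.7, 32.5 and 38.98 CPM), *Gbp3* (15.3, 17.0 and 28.9 CPM), *Oas2* (2.54, 2.51 and 4.94 CPM) and *Bst2*.

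By role, the relative median of *Pd*-KO over wild-type was 0.74 for the antiviral genes (4 higher and 1 lower of 14), 0.27 for the transcription factors, 0.09 for the GTPases, -0.21 for the membrane restriction factors, -0.34 for antigen processing and -0.47 for the PYHIN genes. The median over all 38 was 0.08, with 20 above 0 and 18 below. The membrane restriction factors took different sides: *Bst2* stood at 194, 236 and 399 CPM and *Ifitm2* at 1185, 1271 and 953 CPM. Against the running median of genes of like span on the genome, all 4 antigen-processing genes and all 4 membrane restriction factors lay above 0. There *B2m* stood at 0.05, *Psmb9* at 0.27, *Ifitm2* at 0.11 and *Ifitm3* at 0.38. The sign for these roles thus depended on the scale.

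**Figure D2:**
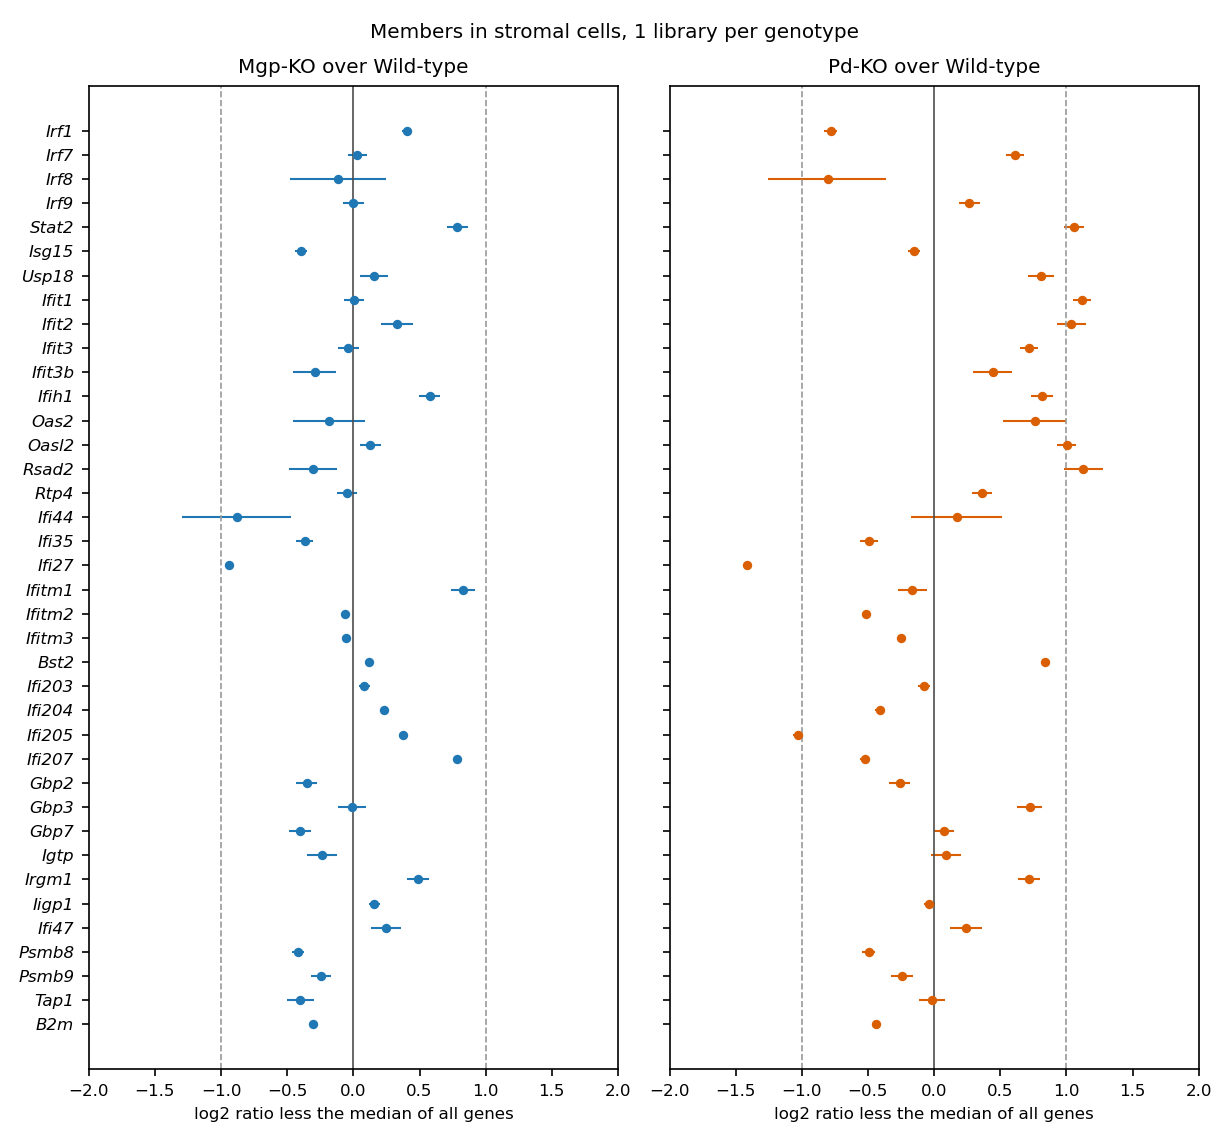
Log2 ratio of each member in stromal cells, less the median of all genes, for *Mgp*-KO over wild-type (left) and *Pd*-KO over wild-type (right), with 95% counting intervals and dashed lines at 2-fold. On the left no member passes the lines; on the right *Rsad2*, *Ifit1*, *Stat2*, *Ifit2* and *Oasl2* lie at or beyond the upper line and *Ifi205* and *Ifi27* beyond the lower one.

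Between the deletions, which share a Cell Ranger version, 3 members were at least 2-fold higher in *Pd*-KO than in *Mgp*-KO stroma and 3 were lower, where 2.41% and 4.66% of 13873 genes were. Higher were *Rsad2* (relative log2 ratio 1.43), *Ifit1* (1.11) and *Ifi44* (1.05, from 0.956 and 2.03 CPM). Lower were *Ifi205* (-1.41), *Ifi207* (-1.31, 289.5 and 120 CPM) and *Irf1* (-1.19, 155 and 69.5 CPM). The antiviral genes had a relative median of 0.72 and the PYHIN genes one of -0.98. In cells called male 0 were higher (*Ifit1* 0.80, *Rsad2* 0.79), and with subsets weighted as in wild-type *Ifit1* (0.74) and *Irf1* (-0.95) were under the limit. The shares of all genes under these 2 settings are not given here.

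The 5 higher members of *Pd*-KO over wild-type lay close to the threshold, and their number rested on the choice of scale: with no UMI minimum per gene, which moved the median of all genes to 0.34, 0 were past it, as with stromal clusters weighted as in wild-type, and with subsets so weighted 1 was, *Oas2*, none of the 5. The shares of all genes under these settings are not given here, so these counts are not a result about the members. With no UMI minimum the 5 lay between 0.86 (*Oasl2*) and 0.99 (*Rsad2*). With clusters weighted the 5 lay between 0.46 (*Ifit2*) and 0.74 (*Oasl2*), while *Ifi27* and *Ifi205* stayed past the limit. In preadipocytes, Areg cells and the *Col18a1* subset in turn, the relative log2 ratio of *Stat2* was 0.82, 0.83 and 0.98, that of *Ifit1* 0.31, 0.92 and 0.92, that of *Oasl2* 0.78, 0.82 and 1.02 and that of *Ifit2* 0.80, 0.55 and 0.34. *Ifi205* stood at -1.14, -1.44 and -0.93 and *Ifi27* at -1.09, -0.88 and -0.97.

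The *Dpp4* clusters 0, 1 and 3 were read one by one for *Pd*-KO over wild-type. *Stat2* had relative ratios of 0.38, 1.12 and 0.91 there, *Ifit1* of 0.93, 0.99 and 0.71, *Oasl2* of 0.64, 0.76 and 0.95 and *Rsad2* of 1.06, 1.65 and 0.13. All of these lay above 0, and *Rsad2* was past 1 in clusters 0 and 1 and near 0 in cluster 3. *Ifi27* stood at -0.99, -1.36 and -1.03 and *Ifi205* at -1.38, -0.99 and -1.10. In cluster 9, with 142 wild-type cells, *Stat2* stood at 0.69, *Oasl2* at 0.80 and *Ifi27* at -2.73, and *Ifit1* and *Rsad2* had too few UMIs. For *Mgp*-KO over wild-type *Ifi207* stood at 0.50, 1.25, 0.78 and 1.11 in clusters 0, 1, 3 and 9 and at 1.02, 0.94 and 1.39 in preadipocytes, Areg cells and the *Col18a1* subset. *Irf1*, at 0.41 in the pooled stroma, was past 2-fold higher in *Mgp*-KO in clusters 5 (*Col18a1* subset), 6 and 8 (Areg cells). There 15.4%, 11.0% and 5.61% of all genes were. *Irf1* stood at 62.4 and 158 CPM (wild-type and *Mgp*-KO) in Areg cells and at 44.4 and 57.9 CPM in *Dpp4* progenitors. In endothelial cells it stood at 127 and 262 CPM, and in mural cells at 78.0 and 270 CPM.

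In vascular cells *Mgp* itself stood at 684 CPM in wild-type and 37.3 CPM in *Pd*-KO endothelial cells, but at 309 and 348 CPM in mural cells. In endothelial cells 0 of 36 members were at least 2-fold higher in *Pd*-KO than in wild-type and 2 were lower, where 11.5% and 2.88% of 9207 genes were. These were *Ifitm1* (11.7 and 3.94 CPM; log2 ratio -1.56, interval -2.39 to -0.81, relative -1.74) and *Ifi205* (68.5 and 31.3 CPM; -1.13, -1.41 to -0.86, relative -1.31). The median of the 36 was -0.10, and *Irf8* and *Oas2* had too few UMIs to be read.

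In mural cells, which kept *Mgp* RNA in *Pd*-KO, 8 of 34 members were higher and 1 was lower, where 12.6% and 4.49% of 9297 genes were. *Ifih1* (MDA5, a sensor of double-stranded RNA) stood at 14.3 and 44.5 CPM (log2 ratio 1.63, 1.28 to 1.99, relative 1.38), *Rtp4* at 24.7 and 75.2 CPM (1.60, 1.33 to 1.88, relative 1.35) and *Bst2* at 112 and 274 CPM (1.29, 1.16 to 1.42, relative 1.03). *Stat2*, *Oasl2*, *Gbp3*, *Irgm1* and *Ifi47* were the other higher members, from 1.10 to 1.26 relative. *Ifi205* was lower, as it was in stromal cells (70.5 and 25.9 CPM in mural cells, relative -1.70). The 6 stromal markers summed to 18510 CPM in wild-type and 16394 CPM in *Pd*-KO mural cells. How much of the *Ifi205* RNA read in mural and endothelial cells came from stromal cells was not tested. The median over the 34 was 0.50, with 24 above 0, and *Irf8*, *Ifit3b*, *Oas2* and *Ifi44* had too few UMIs. Whether endothelial and mural cells differed in these ratios was not tested.

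The mural class joined clusters 9 and 13, and cluster 9 had *Myh11*, *Tagln*, *Acta2* and *Rgs5* among its leading genes. Cluster 13, with *Rgs5* and *Ednrb* among them, made up 17.8% of it in wild-type, 32.4% in *Mgp*-KO and 47.7% in *Pd*-KO. Over the class, the smooth muscle genes *Acta2* and *Tagln* stood at 8247 and 6625 CPM in wild-type and 3646 and 2639 CPM in *Pd*-KO, and the pericyte genes *Rgs5* and *Abcc9* at 1384 and 71.8 CPM and at 2038 and 502 CPM. Read by cluster, 4 of 30 members were higher and 1 lower in cluster 9 (11.5% and 3.07% of genes) and 3 of 28 higher and 2 lower in cluster 13 (13.8% and 4.34%). Within clusters the counts lay near the shares of all genes, so they are not a result about the members. The higher ones in cluster 9 were *Ifih1* (relative log2 ratio 1.44), *Stat2* (1.19), *Rtp4* (1.05 from 18.9 and 44.2 CPM) and *Ifitm1* (1.53). Those in cluster 13 were *Ifit1* (1.57), *Irgm1* (1.34) and *Oasl2* (1.10). *Ifitm1* went opposite ways, from 33.5 to 109.6 CPM in cluster 9 and from 407 to 111 CPM in cluster 13. *Bst2* (0.85 and 0.50) was past 2-fold in neither cluster, *Stat2* had too few UMIs in cluster 13 and *Gbp3* in cluster 9, and *Ifi205* was lower in both (-1.49 and -1.67).

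The type I interferon genes were spread unevenly over single cells. A score was the number of UMIs, out of 2000 to which every cell was thinned, from 12 antiviral genes (*Isg15*, *Usp18*, *Ifit1*, *Ifit2*, *Ifit3*, *Ifit3b*, *Oas2*, *Oasl2*, *Rsad2*, *Rtp4*, *Ifi44* and *Irf7*). Its mean was 0.596, 0.547 and 0.938, while 7371, 9064 and 5153 cells scored 0. The variance was 3.85, 3.66 and 4.09 times the mean, and the 1% of cells with the highest score held 18.5%, 18.8% and 15.2% of the score's UMIs.

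A score of 5 or more was called high, and 242, 241 and 342 cells had one: 2.30% of cells (2.02 to 2.61) in wild-type, 1.92% (1.68 to 2.17) in *Mgp*-KO and 3.88% (3.49 to 4.30) in *Pd*-KO. Around this limit, 120, 130 and 231 cells scored 4 and 86, 79 and 113 scored 5. Endothelial cells had larger shares than the stromal, mural and luminal classes in every library, 7.97% (6.22 to 10.03), 7.37% (4.62 to 11.04) and 8.52% (6.67 to 10.7). The intervals are over cells of 1 library per genotype, so their overlap cannot show whether genotypes differ. *Dpp4* progenitors followed in the stroma with 3.05% (2.41 to 3.80), 2.41% (2.04 to 2.84) and 4.29% (3.71 to 4.93), while the *Col18a1* subset had 0.524%, 0.779% and 1.59%. Within the *Dpp4* class, cluster 0 had 3.42%, 3.08% and 5.30%, cluster 1 had 3.002%, 2.42% and 5.21%, and cluster 3 had 2.45%, 1.74% and 2.54%.

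Mural cells had 0.949% (0.456 to 1.74) in wild-type and 4.12% (2.66 to 6.06) in *Pd*-KO. By cluster these were 0.693% (0.255 to 1.502) and 2.95% (1.36 to 5.53) in cluster 9, and 2.13% (0.583 to 5.36) and 5.40% (3.05 to 8.74) in cluster 13, from 4 to 15 high-scoring cells each. Luminal cells had 0% (0 of 371, which allows up to 0.989%), 0.332% and 0.787%, at medians of 21712, 8883 and 10846 UMIs per cell. How much of their signal was stray RNA was not tested. Without thinning, the share of cells with any UMI of the 12 genes was 68.2%, 51.5% and 71.7% over all cells and 72.8%, 41.03% and 50.4% in luminal cells. The luminal share was thus as high as that of all cells in wild-type, and the unthinned share is not used further. Among stromal cells the high share was 1.64%, 1.61% and 2.98% in cells called female and 2.29%, 2.53% and 3.73% in cells called male.

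**Figure D3:**
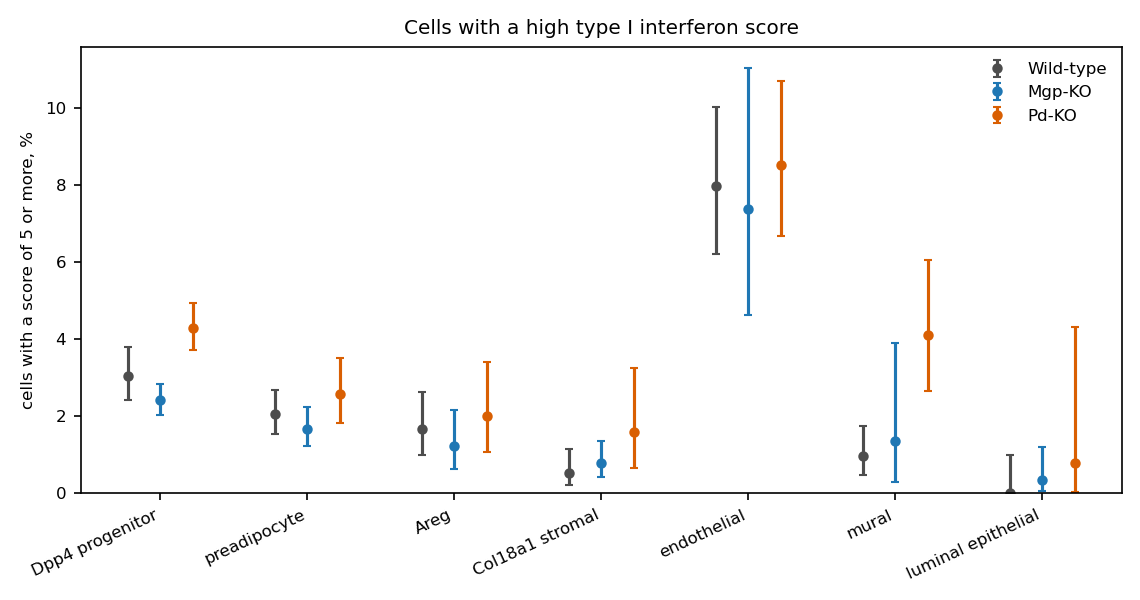
Share of cells (percent) with a type I score of at least 5 of 2000 UMIs in each class, 1 point per library with its exact 95% binomial interval. Endothelial cells lie near 8% in all 3 libraries and luminal cells at or near 0. *Pd*-KO is the highest point in every class shown. The intervals are over cells of 1 library per genotype and cannot show whether genotypes differ. The clusters within the *Dpp4* progenitor and mural classes differ in share between libraries.

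High-scoring stromal cells (152, 210 and 247) were then set beside stromal cells with a score of 0 (5109, 7897 and 4125), reading the 26 members that are not in the score. This contrast was added after the data were seen. At least 2-fold higher in every library were 17 of the 26, and 0 were lower, where 1.15% of 14022 genes were higher (161 genes) and 0.435% lower (61 genes). The score genes themselves chose the cells and are not counted.

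The GTPases, which interferon gamma is also known to induce, stood out among the 17. *Ifi47* stood at 82.8, 115 and 96.4 CPM in high-scoring cells and 8.14, 10.2 and 8.94 CPM in score-0 cells (log2 ratio 3.35, 3.498 and 3.43). *Igtp*, whose window holds GAS letters next to an ISRE, stood at 95.1, 100.3 and 97.2 CPM against 9.50, 8.11 and 9.56 CPM (3.33, 3.63 and 3.35). *Iigp1* stood at 525, 642 and 533 CPM against 75.3, 85.6 and 76.4 CPM (2.80, 2.91 and 2.80). These 3 genes were named for their high ratios, so the lack of overlap between the 2 sets across libraries is no further result.

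*Tap1* (2.44, 2.11 and 2.45), *Ifih1* (2.60, 2.58 and 2.30), *Psmb9* (1.61, 1.67 and 1.62) and *Psmb8* (1.59, 1.38 and 1.51) were higher as well. *Stat2* stood at 76.6, 124 and 158 CPM against 16.1, 33.6 and 33.7 CPM (2.26, 1.89 and 2.23), *Bst2* at 579, 885 and 1027 CPM against 153.5, 176 and 306 CPM (1.92, 2.33 and 1.75), and *Ifitm3*, the most abundant member, at 3244, 3406 and 2823 CPM against 1416, 1547 and 1330 CPM (1.20, 1.14 and 1.09). The score-0 cells of both deletions had a *Stat2* level near 34 CPM, above the 16.1 CPM of wild-type.

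The 9 members outside the score that did not pass were *Irf1*, *Irf8*, *Ifi27*, *Ifitm1*, *Ifitm2*, *Ifi204*, *Ifi205*, *Ifi207* and *B2m*. *Irf1* stood at 86.6, 209.5 and 59.97 CPM in high-scoring and 102, 142 and 69.6 CPM in score-0 cells. *Ifi27* stood at 384, 207 and 122 CPM against 423, 249 and 197 CPM, lower in high-scoring cells of each library by less than 2-fold. *Ifi205* stood at 377, 388 and 222 CPM against 251, 386 and 139 CPM. *Ifi27* and *Ifi205*, the members lower in *Pd*-KO stroma, were thus among those not past 2-fold between high-scoring and score-0 cells.

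**Figure D4:**
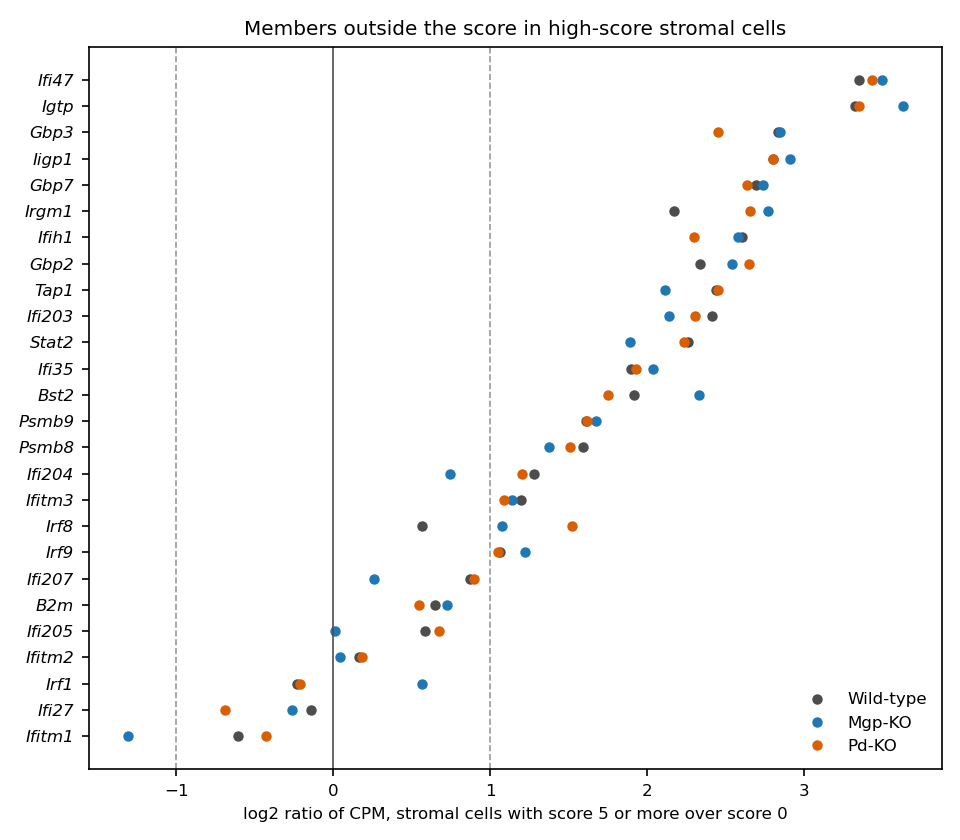
Log2 ratio of the 26 members outside the score between stromal cells with a score of at least 5 and with a score of 0, 1 dot per library. *Ifi47* and *Igtp* lie above 3 in all 3 libraries, while *Irf1*, *Ifitm1* and *Ifi27* scatter about or below 0.

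The 2 sets of cells had medians of 13830, 6852 and 9174 UMIs against 13892, 6275 and 8786, and immune markers summed to 0.946, 0.627 and 2.07 CPM against 1.84, 2.42 and 1.64 CPM. Endothelial markers summed to 28.9, 25.1 and 31.9 CPM in high-scoring against 29.9, 15.5 and 18.6 CPM in score-0 stromal cells, and their part in the result was not tested. *Dpp4* progenitors were 76 of the 152 high-scoring wild-type cells and 67.1% and 76.5% of those of the deletions, against 31.7%, 51.4% and 58.4% of score-0 stromal cells, and preadipocytes made up 34.2%, 21.9% and 15.4% against 33.9%, 24.2% and 22.5%. Without the wild-type library 18 members passed, the added one being *Irf8*. In endothelial cells in place of stromal cells 12 did. The shares of all genes under these settings are not given here, so these counts are not a result about the members.

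The rest of the pathway was read from a list of 101 other genes, of which 96 had a row. The ligands were almost absent from these cells: over all kept cells *Ifnb1* had 2, 2 and 1 UMIs, *Ifng* 5, 9 and 3, *Ifnk* 3, 3 and 0 and *Ifne* 0, 0 and 1, and *Ifna1*, *Ifna2*, *Ifna4*, *Ifna5*, *Ifnl2* and *Ifnl3* had 0 each, where 3 counts is the limit that a count of 0 allows. Cells with Cd45 were sorted out before sequencing. The receptors were present, with *Ifnar1* at 22.6, 24.8 and 27.9 CPM, *Ifnar2* at 103, 109 and 109 CPM, *Ifngr1* at 116, 119 and 95.1 CPM and *Ifngr2* at 54.0, 56.0 and 42.8 CPM. *Ifnlr1*, the receptor chain of lambda interferons, stood at 0.255, 1.12 and 0.419 CPM. The kinase *Jak1* stood at 219, 410.4 and 360 CPM.

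In stromal cells 3 of 77 pathway genes were at least 2-fold higher in *Mgp*-KO than in wild-type and 2 were lower (*Gbp4* and *Ccl5*), and for *Pd*-KO 6 of 76 were higher and 3 were lower. Over all genes 15.4% and 3.64% were for *Mgp*-KO and 17.4% and 7.36% for *Pd*-KO. Each of these pathway shares was smaller than that of all genes. *Nlrc5*, the activator of class I genes, stood at 1.33, 7.54 and 5.54 CPM, *Pias1* at 18.6, 48.2 and 61.1 CPM and *Gbp8* at 0.666, 1.99 and 4.91 CPM, and these 3 were higher in both deletions. *Irgm2* (15.3 and 38.4 CPM), *Herc6* (8.79 and 21.2 CPM) and *Slfn2* (7.64 and 20.1 CPM) were higher in *Pd*-KO than in wild-type. *Cxcl10*, a chemokine induced by interferon, went against them at 297, 261 and 57.9 CPM, as did *Socs3*, an inhibitor that interleukin-6 also induces, at 244, 367 and 65.3 CPM. Between the deletions 4 of 75 were higher and 3 lower in *Pd*-KO, against 2.41% and 4.66% of all genes, with *Socs3*, *Cxcl10* and *H2-Q4* (43.1 and 20.1 CPM) the lower ones.

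Between classes, 20 of 78 pathway genes were higher and 4 lower in endothelial than in stromal cells in every library, where 11.0% and 8.29% of all genes were. The counts were 0 and 8 of 79 in mural cells (9.01% and 5.86% of all genes) and 5 and 25 of 79 in luminal cells (14.0% and 14.8%). In high-scoring stromal cells 46 of 77 were higher and 0 lower, against 1.15% and 0.435% of all genes. *Zbp1*, a sensor of Z-form nucleic acid, stood at 112, 116 and 155 CPM against 14.3, 18.2 and 27.6 CPM and *Cxcl10* at 727, 952 and 271 CPM against 261, 199 and 46.0 CPM. *Ifnar1* (20.8, 30.1 and 29.4 CPM against 23.02, 26.3 and 26.4 CPM) and *Socs3* (223, 426 and 51.7 CPM against 241, 352 and 66.6 CPM) were not past 2-fold. *Cxcl10* was thus lowest in *Pd*-KO both in high-scoring and in score-0 cells.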

How the data were processed

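Gene counts for 3 libraries were used as the authors deposited them: raw UMI counts per gene and barcode from Cell Ranger (6.1.1 in the processing notes and methods; 4 and 7.1.0 in the file headers), aligned to mm10 per the methods and GRCm39 per the notes; intron counting was not given in the sources used here. Barcodes under 2000 UMIs or over 10% mitochondrial UMIs were left out. No doublet caller was run; results were repeated without the 5% of cells with most UMIs. Cells were clustered (2000 variable genes without members, pathway genes, *Mgp* or sex-linked genes; 30 principal components; Harmony over libraries; 20 neighbors; Leiden resolution 0.5) with Python 3.11.15, numpy 2.4.6, scipy 1.17.1, pandas 2.3.3, scikit-learn 1.9.0, igraph 0.11.9, leidenalg 0.10.2 and matplotlib 3.10.9. Clusters were named from at least 3 detected markers, with thresholds set after the clusters were seen. UMIs were summed per class and library, scaled to CPM and compared as ratios with exact conditional binomial, Poisson or Clopper-Pearson 95% intervals, and genes needed at least 100 UMIs over both sides. The fold call was tested on simulated data. Of 32285 gene IDs, 99.6% matched the GENCODE M21 annotation (GRCm38).

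The members and all gene lists were chosen with earlier results of these data known. Named were the leading members of each role, all members past 2-fold between libraries in stromal cells or between endothelial and stromal cells, and those with fewest UMIs; other members were chosen after their values were seen. A result on 1 pathway gene is not reported here.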

Additional observations from a re-analysis of the deposited data

How the results depend on the processing

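With 1 library per genotype no library could be left out of a genotype comparison, and the intervals cover counting error only. No paired analysis was possible because each genotype has replicate 1 only. Of 127 alternatives to 12 results, 90 stayed within 1.5 times a count or within the counting interval of a share, and 37 moved. Counts and shares have no sign, so a turn of direction could not be seen in them. Single members did change sign. For example, the relative log2 ratio of *Ifitm1* for *Mgp*-KO over wild-type was 0.83 as reported in stromal cells. It was -0.58 in cells called male and -0.21 in barcodes of at least 500 UMIs with a *Pdgfra* UMI. In stromal cells, a 1.5-fold limit gave 3 members higher and 2 lower for *Mgp*-KO over wild-type (23.9% and 10.3% of all genes), 13 and 4 for *Pd*-KO over wild-type (26.9% and 19.1%), 11 and 6 for *Pd*-KO over *Mgp*-KO (8.67% and 9.95%), and 20 higher in endothelial than stromal cells (17.3%). For *Mgp*-KO over wild-type (0 and 0 as reported), 1 was lower in cells called female, without the cells with most UMIs and with each cell weighted equally, 2 were lower with no UMI minimum per gene and in barcodes of at least 500 UMIs with a *Pdgfra* UMI, 1 was higher against genes of like span and, *Ifitm1*, with stromal clusters weighted as in wild-type, and 2 were higher, *Ifitm1* and *Ifi207*, with subsets weighted as in wild-type. For *Pd*-KO over wild-type (5 and 2), 8 were higher and 1 lower with no median taken off, 9 and 1 against genes of like span, 1 lower without Harmony and in cells called male, and the higher count was 0 with no UMI minimum and with weighted clusters, 2 without the cells with most UMIs, 1 with each cell weighted equally (*Ifit1*) and 1 with weighted subsets (*Oas2*). For *Pd*-KO over *Mgp*-KO, 0 were higher in cells called male. Apart from the 1.5-fold limit, the shares of all genes under these settings are not given, here or above. These counts are thus not read as a result about the members. The high-score share was 5.95%, 5.52% and 10.6% at a score of 3, 0.771%, 0.692% and 1.36% at 8, 1.90%, 1.55% and 3.31% in cells called female, and 2.60% in *Mgp*-KO cells called male. The weightings by subset and cluster, the fits without wild-type and all alternatives to the high-score contrast were chosen after seeing the data. The causes were not tested.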

Other observations

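Outside the named classes, a cluster led by *Ccl21a* (138, 33 and 45 cells) held *Ifitm1* at 1695, 1320 and 522 CPM and *Irf8* at 125, 78.9 and 42.8 CPM, far above the levels of both genes over all cells, and its members summed to 9344, 10064 and 6593 CPM. Lymphatic endothelial cells (66, 7 and 24) summed to 12448, 8976 and 7439 CPM. Immune cells left after the sort (41, 13 and 60) summed to 6969, 7125 and 4715 CPM, and myoepithelial cells to 3298, 3459 and 2012 CPM. In *Mgp*-KO over wild-type, *Ifitm1* had relative log2 ratios of 1.84 in preadipocytes, 1.56 in Areg cells and 1.18 in the *Col18a1* subset.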
